A study of Mus musculus with 6 samples.

Results

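The genes described here are 6 peripheral myelin genes, *Mbp*, *Pmp22*, *Mal*, *Prx*, *Ncmap* and *Mag*, chosen by name from the 16494 genes of the deposited table. Their levels were followed in myelinating glia (1232 barcodes), in non-myelinating glia (372 barcodes) and in 9 other cell types of the lower abdominal muscle (LAM), among 63647 barcodes in all, a barcode standing for the RNA of 1 droplet. Single cells were sequenced from the LAM of 3 wild-type (WT) and 3 Aromhum male mice on the FVB/N background, aged 9 to 10 weeks. Aromhum mice carry a genomic fragment with the whole human aromatase gene *CYP19A1* under its native human promoters, so that expression of aromatase, the enzyme that makes estrogens from androgens, is not limited to a single cell type, and they had scrotal hernias. WT mice were littermates without the transgene, and tissue from 1 mouse of each genotype was processed on each of 3 dates. Muscle was digested with collagenase and dispase and passed through a filter that removes multinucleated fibers, so that the nerve is represented by the glia freed from it. The question was where these genes were expressed and whether their levels differed between the genotypes.

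Myelin in a peripheral nerve is made by Schwann cells, each of which wraps a single segment of a large axon. Schwann cells that do not myelinate ensheathe bundles of thin axons or cover the nerve ending at the muscle. Most of the sheath is compact myelin, in which the membranes are pressed together, while the inner and outer edges, the incisures and the paranodes keep some cytoplasm. *Mbp* encodes myelin basic protein, which lies between the cytoplasmic faces of the membrane and helps to bring them together, and the same gene also has golli transcripts, which are known from lymphocytes and other cells. *Pmp22* encodes a small membrane protein of compact myelin whose dosage is altered in inherited neuropathies and which is also expressed outside the nerve. *Mal* encodes a proteolipid that takes part in the sorting of lipid-rich membrane. *Ncmap* encodes a membrane protein of Schwann cells named after noncompact myelin. *Prx* encodes periaxin, a scaffold protein that links the outer Schwann cell membrane to the dystroglycan complex. *Mag* encodes myelin-associated glycoprotein, an adhesion molecule on the inner membrane that faces the axon. The transcription factors *Egr2* and *Sox10* are known to drive myelin genes in Schwann cells.

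On the mouse genome (GRCm38, GENCODE vM21), 5 of the genes lie at chr11:63128982-63159547 on the plus strand (*Pmp22*), chr2:127633226-127656695 on the minus strand (*Mal*), chr4:135369576-135398227 on the minus strand (*Ncmap*), chr7:27499324-27520214 on the plus strand (*Prx*) and chr7:30899176-30914873 on the minus strand (*Mag*). Each of the 6 is a protein-coding gene. RefSeq promoters (GRCm38, 250 bases before to 50 bases after a start site) were found for 5 of the 6 genes, 11 promoters in all. They were searched on both strands for the words GCGTGGG and GCGGGGG, which are forms of the site bound by EGR factors, and for ACAAAG and ACAATG, which are forms of the site bound by SOX factors. Of the 11 promoters, 3 held an EGR word, against 14.7% of all 32851 RefSeq promoters, and 2 held a SOX word, against 28.6% of all. The EGR words were in both *Ncmap* promoters and in the *Prx* promoter, and the SOX word was in a pair of overlapping *Mag* promoters. The 4 promoters of *Pmp22*, the promoter of *Mal* and a further *Mag* promoter held neither. Letters of these kinds are a description of the sequence and not evidence of binding. A promoter with a word is shown for each of *Ncmap*, *Prx* and *Mag*, the 3 genes whose promoters held any. These genes also had the lowest levels of the 6 in non-myelinating glia. The promoters shown are written 5′ to 3′ in the direction of transcription, with the matching word, or its reverse complement, in capitals.
Ncmap, chr4:135398178-135398477, minus strand: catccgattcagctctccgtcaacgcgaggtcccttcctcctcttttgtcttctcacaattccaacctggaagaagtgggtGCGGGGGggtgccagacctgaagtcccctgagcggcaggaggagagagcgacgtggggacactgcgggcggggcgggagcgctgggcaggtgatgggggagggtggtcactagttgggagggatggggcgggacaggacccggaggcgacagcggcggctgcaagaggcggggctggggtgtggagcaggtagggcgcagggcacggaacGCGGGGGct
Prx, chr7:27499074-27499373, plus strand: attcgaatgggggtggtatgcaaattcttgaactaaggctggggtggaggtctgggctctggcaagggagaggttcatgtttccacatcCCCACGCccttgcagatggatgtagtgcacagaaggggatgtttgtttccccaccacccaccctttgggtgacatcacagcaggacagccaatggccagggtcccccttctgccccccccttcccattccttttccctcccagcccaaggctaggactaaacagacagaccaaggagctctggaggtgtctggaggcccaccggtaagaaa
Mag, chr7:30914814-30915113, minus strand: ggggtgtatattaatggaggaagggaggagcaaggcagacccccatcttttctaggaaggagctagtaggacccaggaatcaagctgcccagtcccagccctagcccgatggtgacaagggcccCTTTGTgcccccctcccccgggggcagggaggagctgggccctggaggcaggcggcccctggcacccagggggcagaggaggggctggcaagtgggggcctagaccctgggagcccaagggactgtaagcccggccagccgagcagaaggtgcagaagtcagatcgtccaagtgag
In the *Ncmap* promoter shown the words start 169 bases before and 41 bases after the start site, in *Prx* the word starts 161 bases before it and in *Mag* 126 bases before it. In the *Ncmap* promoter not shown, GCGTGGG starts 35 bases before the start site.

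Cell types were set by clusters and by marker genes that did not include any of the 6 genes. The 6 libraries held 64958237 to 111826460 unique molecular identifiers (UMIs, counted RNA molecules), and *CYP19A1* had 770 to 797 UMIs in each Aromhum library and 0 in each WT library, which allows up to 3 UMIs. Of 2524 glial barcodes, 920 stayed unnamed because genes of another cell type, or of both glial classes, led their clusters. Myelinating glia had the defining markers *Cldn19* (868 CPM, a gene's UMI counts scaled to all UMIs of the class in a mouse, mean of 6 mice, against 14.3 CPM in non-myelinating glia) and *Pllp* (607 against 7.43 CPM). Non-myelinating glia had the marker *Scn7a* at 2863 CPM over their cluster of 91 barcodes but at 74.7 and 98.0 CPM over the clusters of 251 and 30, against 756 CPM in an unnamed cluster of 301 and 1379 CPM in one of 87. *Ngfr*, another of their markers, was at 1.87 CPM over the cluster of 251. Over other glia the cluster of 251 was led by *Lyz2*, a macrophage marker, *Tinagl1* and *Lyz1*, and the cluster of 30 by *Saa1*, *Enpp2* and *Fetub*. The class name of these clusters rests on a mean score over 13 markers. That score was 0.442 in the cluster of 251 and 0.146 in that of 30, against 1.18 in the cluster of 91. In the unnamed clusters of 301 and 87 it was 1.01 and 1.24, above the clusters of 251 and 30. Values of non-myelinating glia given here therefore come mostly from barcodes of low-scoring clusters and leave out these unnamed ones. Of the myelinating barcodes, 91.2% held over 5% mitochondrial UMIs, against 38.9% of all barcodes. With limits on cells as in the methods (200 to 2500 genes, 1000 UMIs or more, mitochondrial UMIs up to 5%), 2 to 25 myelinating barcodes per mouse were left. Every deposited barcode was therefore used, and values within these limits are given where they can be had. Doublet calls marked 1.23% to 2.73% of the barcodes of a library. No barcode sequence was glial in 2 libraries, although 22 of the barcodes in the 2 glial classes shared their sequence with a barcode of another library.

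All 6 genes were at their highest level in myelinating glia, and in each of them the lowest mouse in myelinating glia was above the highest mouse in any other cell type. The ratio of the mean levels in myelinating and non-myelinating glia ranged from 6.43 (*Pmp22*) to 115 (*Ncmap*). Clusters were made from the same cells, so these differences are a description without a test. *Mbp* was at 4578 ± 523 CPM (SD, n = 6 mice) in myelinating glia, with 4033, 4346 and 5440 CPM in the lowest, the median and the highest mouse. In non-myelinating glia *Mbp* was at 233 ± 32.1 CPM (177, 235 and 266 CPM), 19.6 times lower. *Pmp22* was at 12610 ± 2336 CPM (9788, 12259 and 16262 CPM) in myelinating and at 1961 ± 178 CPM (1760, 1922 and 2240 CPM) in non-myelinating glia. These 2 compact myelin genes thus kept a clear level in the class named non-myelinating glia, with narrow spread between mice in its sum. Over the pooled barcodes of its clusters *Mbp* was at 121 to 985 CPM and *Pmp22* at 1317 to 2140 CPM. Within the limits on cells, in the 5 mice with at least 10 such barcodes, *Pmp22* was at 23489 ± 6911 CPM in myelinating glia.

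*Mal* was at 2694 ± 345 CPM (SD, n = 6 mice) in myelinating glia, with 2106, 2860 and 2954 CPM in the lowest, the median and the highest mouse, and at 78.5 ± 26.7 CPM (37.5, 77.4 and 118 CPM) in non-myelinating glia, a ratio of 34.3. *Ncmap* was at 1128 ± 127 CPM (997, 1106 and 1306 CPM) in myelinating glia and at 9.80 ± 8.11 CPM (0, 6.82 and 21.5 CPM) in non-myelinating glia. *Prx* was at 727 ± 192 CPM (551, 657 and 1068 CPM) in myelinating glia and at 10.2 ± 6.76 CPM (0, 11.0 and 17.8 CPM) in non-myelinating glia, a ratio of 71.3. The outer-membrane scaffold and *Ncmap* were therefore close to the counting floor in non-myelinating glia, with 26 UMIs of *Prx* and 30 UMIs of *Ncmap* over all 6 mice. *Mag* was at 341 ± 60.4 CPM (279, 341 and 407 CPM) in myelinating and at 10.1 ± 7.20 CPM (0, 9.55 and 19.8 CPM) in non-myelinating glia, a ratio of 33.7 on 28 UMIs. In Aromhum replicate 2 none of the 3 had a UMI in non-myelinating glia, and a count of 0 there allows up to 16.1 CPM.

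**Figure D1:**
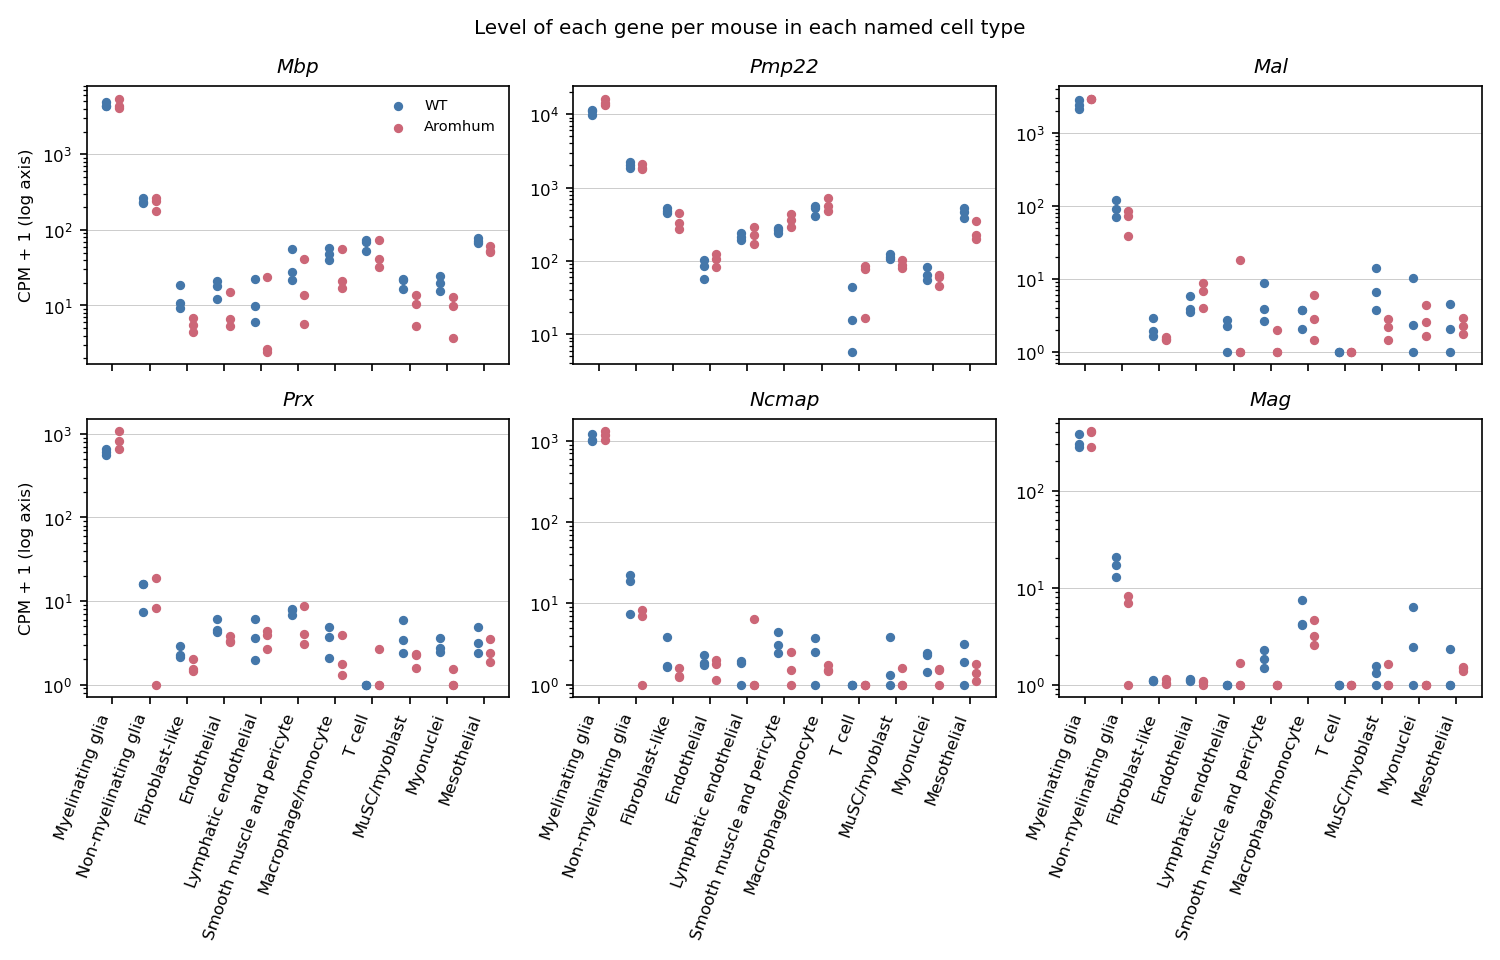
CPM + 1 on a log axis for each gene in each named cell type, 1 point per mouse, WT in blue and Aromhum in red. In each panel the 6 points of myelinating glia lie above all others, at 9788 to 16262 CPM for Pmp22 and at 279 to 407 CPM for Mag, and only Pmp22 and Mbp have clear levels in most other cell types.

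The share of cells in which a gene was seen gave the same order of the 2 glial classes. A UMI of *Mbp* was found in 97.7% ± 0.478 (SD, n = 6 mice) of myelinating and 56.6% ± 9.83 of non-myelinating barcodes, and a UMI of *Pmp22* in 97.4% ± 1.44 and 93.5% ± 3.66. *Mal* was seen in 92.9% ± 2.12 and 22.8% ± 7.97 of the 2 classes. Median depth was 2199.5 UMIs in myelinating and 4174 UMIs in non-myelinating glia, so that the class with the higher shares was the shallower one. The remaining 3 genes were seen in fewer myelinating barcodes and in few non-myelinating ones. For *Prx* the shares were 70.4% ± 6.43 and 3.53% ± 1.87, for *Ncmap* 68.2% ± 8.74 and 2.46% ± 1.98, and for *Mag* 46.2% ± 8.05 and 3.44% ± 2.02. All 6 genes were seen together in 331 myelinating barcodes (26.9%) and in 7 non-myelinating ones (1.88%). Fibroblast-like cells, which do not make myelin and had a median of 10030.5 UMIs, held a UMI of *Prx* in 1.07% and of *Mag* in 0.0937% of barcodes. After each barcode was thinned to 1000 UMIs, which left out 186 myelinating and 53 non-myelinating barcodes, the shares were 47.2% and 0.598% for *Prx*, 55.5% and 0.379% for *Ncmap* and 26.8% and 0.647% for *Mag*. In thinned fibroblast-like cells they were 0.137%, 0.0570% and 0.0105%. In the 319 thinned non-myelinating barcodes the SD over 6 mice was 0.975, 0.928 and 1.08 percentage points, larger than the shares themselves, so that a difference from fibroblast-like cells was not detectable at this depth.

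Within the glia the 6 genes did not keep a fixed proportion to each other. Of the 3 myelinating clusters, 1 with 356 barcodes, the shallowest with a median of 1216 UMIs against 2750 and 2333, had higher levels, with *Pmp22* at 18437 CPM over its pooled barcodes against 9873 CPM in the largest cluster (606 barcodes) and 10263 CPM in the third (270 barcodes). *Ncmap* in the same 3 clusters was at 1548, 975 and 990 CPM, and *Prx* at 974, 594 and 562 CPM. *Mag* was at 333, 332 and 306 CPM, so the periaxonal adhesion gene varied less among these clusters. Among the non-myelinating clusters, 1 with 91 barcodes had the ion channel genes *Kcna2* and *Scn7a* among its leading genes. It held *Mal* at 892 CPM and *Mbp* at 985 CPM, while *Prx* was at 18.6 CPM and *Ncmap* at 27.9 CPM. In the largest non-myelinating cluster (251 barcodes) *Mal* was at 40.5 CPM and *Mbp* at 225 CPM, with *Prx* at 11.8 CPM and *Ncmap* at 16.2 CPM. *Mag* was at 55.8 and 10.6 CPM and *Pmp22* at 2100 and 2140 CPM in these 2 clusters. The third non-myelinating cluster (30 barcodes) held *Pmp22* at 1317, *Mbp* at 121 and *Mal* at 39.2 CPM. *Mal* and *Mbp* were thus higher in the cluster of 91 barcodes than in the other two. The values of *Prx*, *Ncmap* and *Mag* there rest on few UMIs, and *Mag* was at 49.7 ± 97.2 CPM (SD, n = 5 mice) in it. Median depth was 1012 UMIs per barcode in the cluster of 91 and 4947 in the cluster of 251. The unnamed cluster led by *Ucn2*, *Btc*, *Gdnf* and *Ngfr* (301 barcodes) had *Mbp* at 622, *Mal* at 389, *Ncmap* at 58.8, *Prx* at 55.8 and *Pmp22* at 1869 CPM, the last below the non-myelinating clusters of 91 and 251 barcodes. The unnamed cluster led by perineurial genes (290 barcodes) had *Mbp* at 1458, *Mal* at 758, *Ncmap* at 237 and *Prx* at 245 CPM.

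**Figure D2:**
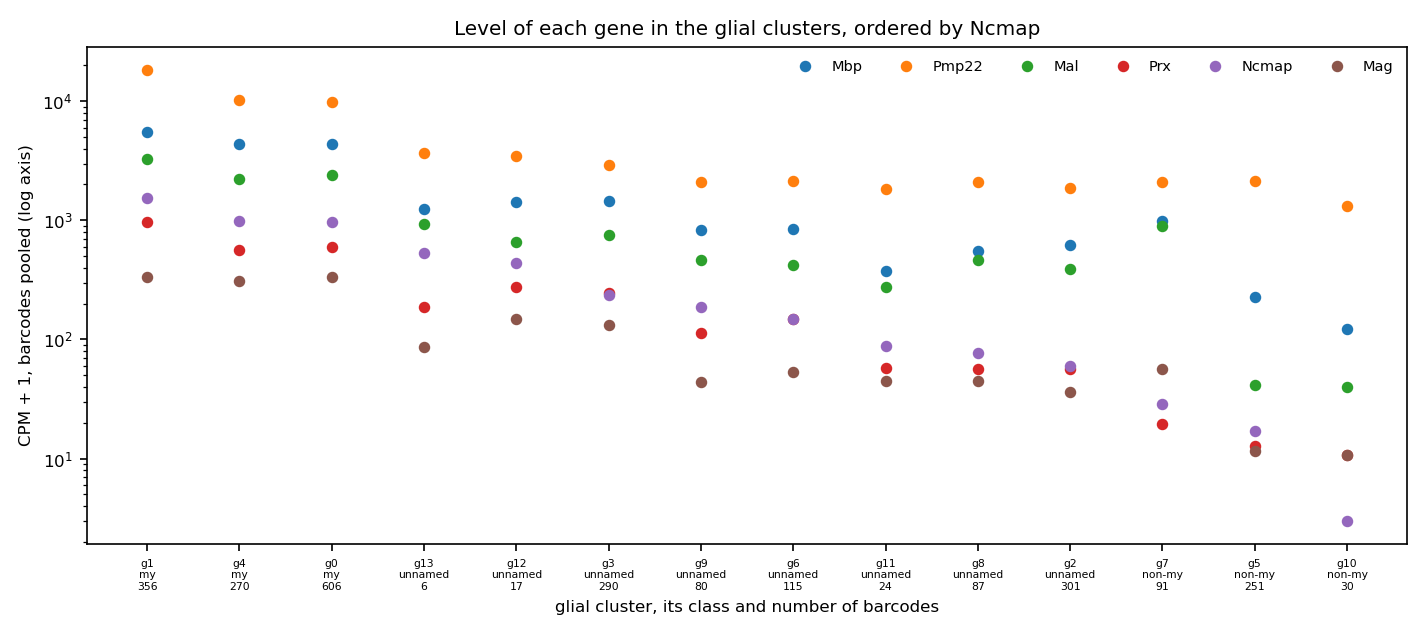
CPM + 1 (log axis) of each gene over the pooled barcodes of each glial cluster, ordered by Ncmap, with the class and the number of barcodes under each cluster. The 3 myelinating clusters (my) are on the left, and in the non-myelinating cluster of 91 barcodes (non-my) Mbp and Mal stand near 985 and 892 CPM while Ncmap and Prx are at 27.9 and 18.6 CPM.

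Outside the glia, *Pmp22* and *Mbp* were seen in each of the 9 other cell types in every mouse, with a wide spread between mice in some types (*Mbp* at 1.44 to 22.5 CPM in lymphatic endothelial cells and *Pmp22* at 4.76 to 84.9 CPM in T cells). *Pmp22* followed non-myelinating glia in the order macrophages/monocytes (540 ± 106 CPM, SD, n = 6 mice), fibroblast-like cells (418 ± 95.8), mesothelial cells (357 ± 130), smooth muscle cells and pericytes (310 ± 73.8) and lymphatic endothelial cells (221 ± 40.3), and the ranges of the mice overlapped between each neighbor in this order. A gap without overlap separated these from muscle stem cells and myoblasts (MuSCs/myoblasts, 101 ± 16.02 CPM), and endothelial cells (92.2 ± 23.1), myonuclei (60.7 ± 11.8) and T cells (39.9 ± 34.1) overlapped in turn. *Mbp* was at 62.3 ± 10.8 CPM in mesothelial cells and 56.1 ± 17.5 CPM in T cells, below non-myelinating glia without overlap, and next came macrophages/monocytes (38.9 ± 17.4) and smooth muscle cells and pericytes (26.7 ± 18.6). In the 5 further types *Mbp* was between 8.27 and 13.99 CPM. Whether the UMIs of *Mbp* in T cells are golli transcripts cannot be read from counts per gene.

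The other 4 genes were rare outside the glia. The highest mean was 4.46 CPM for *Mal* (endothelial cells), 5.35 CPM for *Prx* (smooth muscle cells and pericytes), 1.51 CPM for *Ncmap* (smooth muscle cells and pericytes) and 3.34 CPM for *Mag* (macrophages/monocytes), and the mice of neighboring cell types overlapped, except between fibroblast-like cells and T cells for *Mal* and *Mag*. T cells held 0 UMIs of *Mal*, *Ncmap* and *Mag* in every mouse, which allows up to 4.90 to 43.3 CPM per mouse at their depth. Of all UMIs of a gene in a mouse, glia held 91.3% ± 3.11 for *Mal*, 92.1% ± 2.87 for *Ncmap*, 89.2% ± 6.58 for *Mag*, 75.0% ± 4.93 for *Prx* and 70.9% ± 13.7 for *Mbp* (SD, n = 6). *Pmp22* differed, as glia held 28.3% ± 16.6 of its UMIs and fibroblast-like cells 46.1% ± 13.3.

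The genes whose levels over the 11 named cell types were most like those of each member were named by Pearson's r of log2(CPM + 1) among 11444 genes, as a description in which all points share the same 6 libraries. *Prx* was most like *Ncmap* (r = 0.987), another of the 6, and then *Pllp*, a myelin proteolipid (r = 0.981), and *Grp* (r = 0.977). *Slc9a3* and *Cfap100* (r = 0.992 each) were among the nearest genes of *Ncmap*, and *Mag* was most like *Arhgap19* (r = 0.992), *Kif1a*, an axonal transport motor gene, and *Cldn19*, a tight junction gene of Schwann cells. *Pllp* and *Cldn19* were among the markers that named myelinating glia, so their likeness to *Prx* and *Mag* was partly set by the naming. *Mal* had *Ccdc13* (r = 0.981) and *Hepacam* (r = 0.979) among its nearest genes. *Pmp22* was most like *Fgd4* (r = 0.983), which is itself a gene of inherited demyelinating neuropathy, then *Dpf1* and *Srd5a1*. *Mbp* had *Amn1* (r = 0.972), *D730003I15Rik* and *Serpind1*.

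Glia were a smaller share of the barcodes in each Aromhum mouse than in each WT mouse. They were 4.01%, 5.42% and 8.27% of barcodes in WT and 2.33%, 2.18% and 3.30% in Aromhum mice (5.90% ± 2.17 against 2.60% ± 0.606, SD, n = 3 each). Myelinating glia were 1.88%, 2.93% and 4.43% against 1.01%, 0.821% and 1.56%, and non-myelinating glia 0.580%, 0.850% and 1.01% against 0.366%, 0.349% and 0.546%. The groups did not overlap in any of these 3 shares, and each gave p = 0.1 in a 2-sided exact permutation test, the smallest that 3 against 3 mice allow, so that no share could pass 0.05. Of all glia, 46.8%, 54.1% and 53.5% were myelinating in WT and 43.2%, 37.7% and 47.3% in Aromhum mice, which overlapped (exact permutation p = 0.2). Of the 2 named classes together, 76.4%, 77.5% and 81.4% were myelinating in WT and 73.3%, 70.2% and 74.1% in Aromhum mice (78.4% ± 2.62 against 72.5% ± 2.06, exact permutation p = 0.1). Within the study's limits, which keep 10 to 74 glia per mouse, glia were 1.787% ± 1.204 and 1.504% ± 0.857 of barcodes (exact permutation p = 0.7). A share moves with the other cell types, and fibroblast-like cells, for example, were 1513 to 3473 barcodes per WT and 3426 to 6750 per Aromhum mouse.

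**Figure D3:**
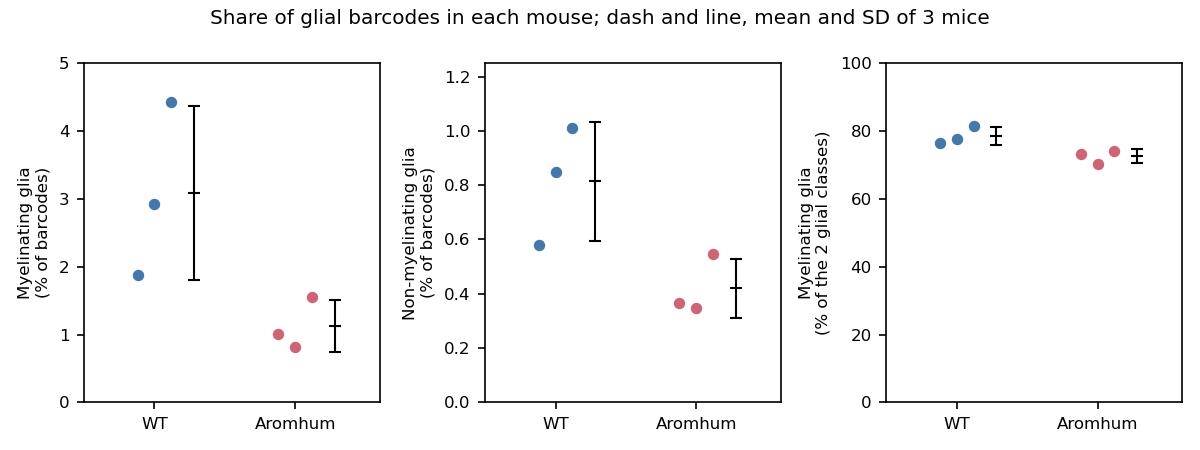
Share of myelinating and of non-myelinating glia among all barcodes, and of myelinating glia among the 2 glial classes, in percent, 1 point per mouse with the mean and SD of 3 mice. Every Aromhum mouse lies below every WT mouse in the 3 panels, at 0.821% to 1.56% against 1.88% to 4.43% for myelinating glia.

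In myelinating glia none of the 6 genes passed the test between the genotypes (edgeR quasi-likelihood, adjusted p under 0.05 over 4801 genes), where 0.125% of the genes tested did. Fitted changes of the 6 genes lay between -0.05 and 0.41 on the log2 scale. *Pmp22* was at 11388, 9788 and 11095 CPM in WT and 13131, 16262 and 13994 CPM in Aromhum mice. Its groups did not overlap, with every Aromhum mouse higher, which was so for 6.37% of the genes tested. Its log2 fold change was 0.37 ± 0.13 (SE, adjusted p = 0.594 in edgeR's test, 0.0102 unadjusted). *Prx* was at 551, 658 and 598 CPM in WT and 829, 1068 and 656 CPM in Aromhum mice, of which the third lay just below the highest WT mouse, with a log2 fold change of 0.41 ± 0.16 (adjusted p = 0.686, 0.0206 unadjusted). *Mal* was at 2814, 2106 and 2444 CPM in WT and 2906, 2941 and 2954 CPM in Aromhum mice, again without overlap (log2 fold change 0.20 ± 0.13, adjusted p = 0.840). The 3 Aromhum mice were close to each other in *Mal*, while the WT mice spread.

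*Ncmap* was at 1228, 997 and 1033 CPM in WT and 1306, 1026 and 1178 CPM in Aromhum myelinating glia (log2 fold change 0.05 ± 0.13, adjusted p = 0.967 in edgeR's test). *Mag* was at 379, 280 and 303 CPM in WT and 400, 279 and 407 CPM in Aromhum mice (0.15 ± 0.16, adjusted p = 0.893), and *Mbp* at 4335, 4358 and 4976 CPM and 4033, 5440 and 4325 CPM (-0.05 ± 0.14, adjusted p = 0.970). The groups overlapped in these 3 genes. Myelinating barcodes held a median of 2143, 2460 and 2701 UMIs in WT and 1591, 1540 and 2400 UMIs in Aromhum mice. Their median share of mitochondrial UMIs was 9.87%, 13.4% and 9.31% in WT and 9.24%, 8.81% and 8.10% in Aromhum mice, without overlap. The 15 fibroblast markers summed to 1864 to 2218 CPM in WT and 2814 to 3253 CPM in Aromhum myelinating glia, with 14 of the 15 higher in the mean, whereas macrophage markers summed to at most 169 CPM with 3 of 12 at 0 in every mouse and T cell markers to at most 5.26 CPM with 8 of 10 at 0. Endothelial markers summed to 341 to 496 CPM in WT and 147 to 311 CPM in Aromhum mice, and mesothelial markers to 138 to 173 and 177 to 207 CPM, both without overlap. The stress and dissociation genes summed to 12638 to 16177 CPM in WT and 10980 to 13579 CPM in Aromhum mice. The part of these in the values above was not tested.

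**Figure D4:**
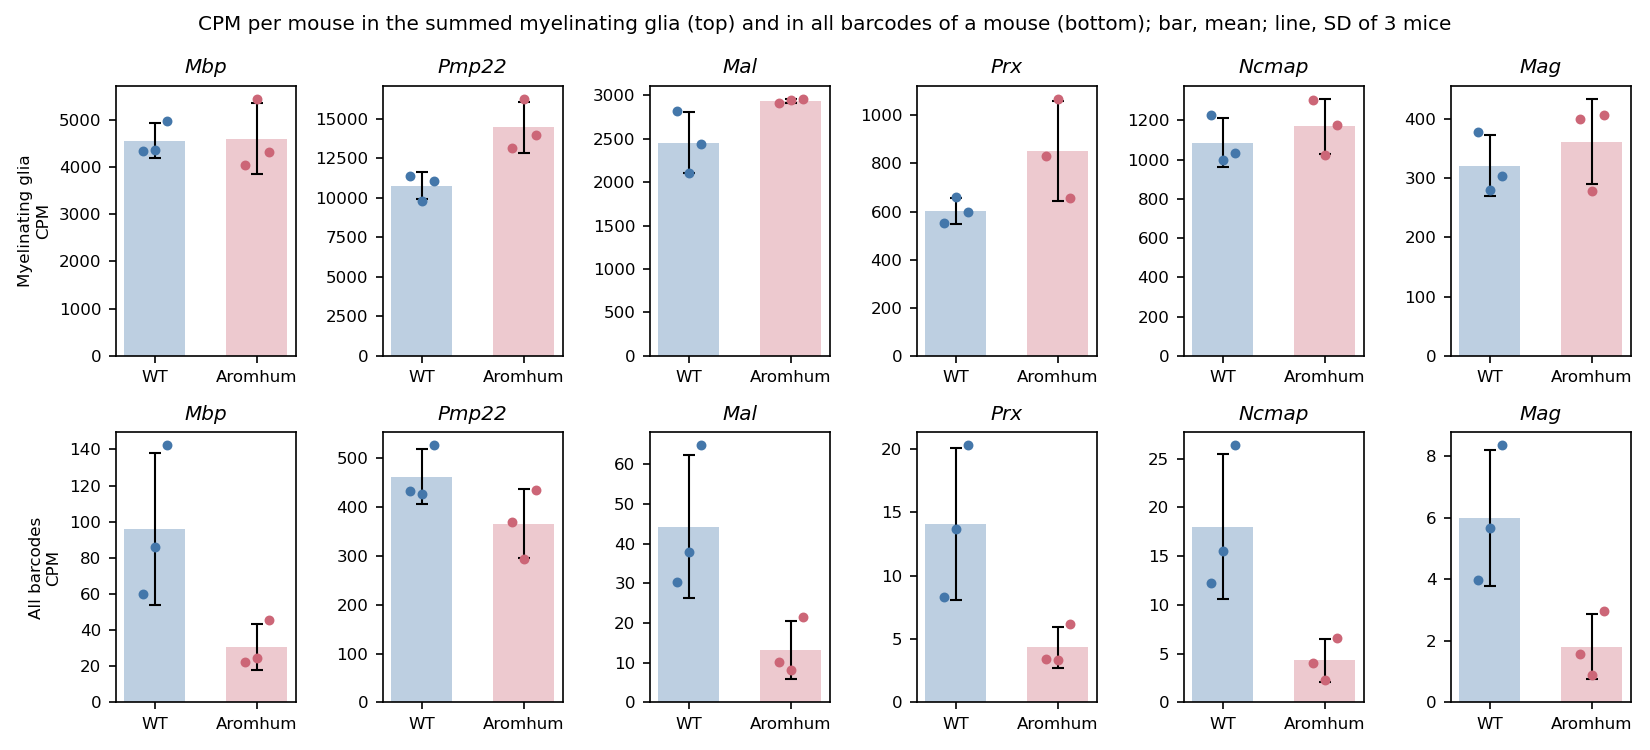
CPM of each gene per mouse in the summed myelinating glia (top) and in all barcodes of a mouse (bottom), with bars for the mean and lines for the SD of 3 mice, from axes that start at 0. In myelinating glia the points of the genotypes overlap or Aromhum mice are higher (Pmp22, 13131 to 16262 against 9788 to 11388 CPM), and in all barcodes Aromhum mice are lower, without overlap except for Pmp22.

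The rest of the myelin program in myelinating glia was likewise without a call. Of 20 listed Schwann cell myelin protein genes, 18 were tested and 0 rose or fell, with a median log2 fold change of 0.06 against 0.0011 over all genes tested. *Cd9*, a tetraspanin of the myelin membrane, had a mean of 9803 and 9863 normalized CPM. Of 12 genes of the node, paranode and adhesion to the axon, 9 were tested and 0 passed (median 0.09), with *Cldn19* at a mean of 870 and 971 and *Gldn*, the nodal organizer gliomedin, at 476 and 566 normalized CPM. Of 15 transcription factor genes, 12 were tested and 0 passed (median -0.11), with *Pou3f1*, a factor of the promyelinating stage, at a mean of 1841 and 1895 and *Jun* at 1332 and 1240 normalized CPM. Of 27 genes of cholesterol and fatty acid synthesis, which supply membrane lipid, 23 were tested and 0 passed. In this list 18 of the 23 had a positive estimate, with a median of 0.22, and 7 were at an unadjusted p under 0.05, as were 318 of all 4801 genes. Among them was *Scd2*, a fatty acid desaturase, at 695, 642 and 741 normalized CPM in WT and 861, 1185 and 850 in Aromhum mice (log2 fold change 0.47 ± 0.15, adjusted p = 0.432, 0.00494 unadjusted). Of 13 receptors for axon and basal lamina, 9 were tested and 0 passed (median 0.19), with *Dag1*, the dystroglycan gene, at a mean of 573 and 681 and *Itgb1* at 358 and 382 normalized CPM. Of 16 repair Schwann cell genes 5 were tested and 0 passed (median -0.09), with the small heat shock gene *Cryab* at 5649 and 5135 normalized CPM. All 16 stress genes were tested and 0 passed, with 2 of 16 positive and a median of -0.23, and *Fos* was at 3434 and 2581 and *Junb* at 2359 and 1833 normalized CPM. Of the perineurial list 3 of 9 genes and of the endoneurial fibroblast list 1 of 6 were tested, and 0 passed. The estrogen list had 1 of 4 genes tested, the transgene *CYP19A1* itself, which rose from 0 to 38.4 to 69.9 normalized CPM, while *Esr1*, *Pgr* and *Greb1* did not reach the filter on low counts.

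In non-myelinating glia only *Mbp*, *Pmp22* and *Mal* passed the filter on low counts, and 0 of the 3 passed the test (edgeR, 4442 genes, 0.158% called). *Mbp* was at 233, 266 and 223 CPM in WT and 238, 177 and 261 CPM in Aromhum mice (log2 fold change -0.09 ± 0.18, adjusted p = 0.976). *Pmp22* was at 2240, 1996 and 1849 CPM in WT and 2075, 1845 and 1760 CPM in Aromhum mice (-0.11 ± 0.15, adjusted p = 0.956). *Mal* was at 118, 90.9 and 69.5 CPM in WT and 71.3, 37.5 and 83.5 CPM in Aromhum mice (-0.44 ± 0.30, adjusted p = 0.917). The groups overlapped in all 3. *Prx*, *Ncmap* and *Mag* had 0 to 13 UMIs per mouse and were not tested there. In the fixed lists 0 genes passed in this class other than *CYP19A1*. Macrophage markers summed to 8307 to 19282 CPM in WT and 6506 to 9828 CPM in Aromhum non-myelinating glia, with 3 of 12 at 0 in every mouse and 8 of 12 higher in the Aromhum mean. *Lyz2* held most of this sum (mean 13323 and 8555 CPM), and *Cd74* was at a mean of 5.28 and 56.5, *H2-Aa* at 2.62 and 8.61, *Ccr2* at 0 and 4.84 and *C1qc* at 0 and 3.77 CPM, while *C1qa*, *C1qb*, *Cd68*, *Mrc1* and *Csf1r* had means of 0 to 3.00 CPM in either genotype. Fibroblast markers summed to 2485 to 10597 and 4947 to 9520 CPM, with 11 of 15 higher in the Aromhum mean. Their part in the values of this class was not tested.

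Whether the genotype difference of a gene itself differed between the 2 glial classes was tested as an interaction with the mouse as a term, over 5703 genes. No gene passed (0%), with 274 genes at an unadjusted p under 0.05 in edgeR and 54 of 14610 in DESeq2. *Mbp*, *Pmp22* and *Mal* passed the filter on low counts in both classes, and each had a positive estimate. A positive estimate means a higher Aromhum to WT ratio in myelinating than in non-myelinating glia. The estimate was 0.48 ± 0.15 for *Pmp22* (SE, unadjusted p = 0.00403), 0.67 ± 0.28 for *Mal*, 1.84 ± 0.71 for *Ncmap*, 1.86 ± 0.70 for *Mag*, 1.07 ± 0.66 for *Prx* and 0.03 ± 0.21 for *Mbp*, with adjusted p of at least 0.966 in edgeR's test. The estimates for *Ncmap*, *Mag* and *Prx* rest on the 26 to 30 UMIs that each had in non-myelinating glia, and they are not read as a difference.

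With all glia of a mouse summed, unnamed clusters included, 0 of the 6 genes passed (9537 genes, 0.44% called in edgeR). *Ncmap* was at 430, 367 and 405 CPM in WT and 367, 219 and 348 CPM in Aromhum mice (log2 fold change -0.40 ± 0.18, adjusted p = 0.458, 0.0410 unadjusted). *Mbp* was at 1653, 1813 and 2049 CPM in WT and 1339, 1403 and 1774 CPM in Aromhum mice (-0.33 ± 0.14, adjusted p = 0.445). After normalization every Aromhum mouse was below every WT mouse in *Ncmap*, which was so for 7.92% of the genes tested, and the groups overlapped in the other 5 genes. *Pmp22*, *Prx*, *Mal* and *Mag* had estimates of -0.03, -0.06, -0.12 and -0.16. Of the myelin protein list 19 of 20 genes were tested and 0 passed (median -0.19, 1 of 19 positive, against -0.00067 over all genes). *Jun*, *Pou3f1*, *Scd2*, *Hmgcs1*, *Dag1* and *Itgb1* had estimates from -0.23 to 0.09. In the repair list 12 of 16 genes were tested and 1 rose, *Tnc*, a matrix glycoprotein gene, from 19.4, 13.7 and 23.8 to 56.4, 74.1 and 36.2 normalized CPM (log2 fold change 1.495 ± 0.27, adjusted p = 0.0368). *Tnc* is not particular to glia. It was among the leading genes of a smooth muscle and pericyte cluster, and the study lists it among markers expressed in fibroblast-like cells. The 12 genes had a median of 0.91, with 7 at an unadjusted p under 0.05, as were 995 of all 9537 genes. All 16 stress genes were tested and 0 passed (median -0.30, 1 of 16 positive, 7 at an unadjusted p under 0.05 against the same 995 of 9537). The 15 fibroblast markers summed to 9641 to 11087 CPM in WT and 11956 to 14394 CPM in Aromhum glia. Endothelial markers summed to 1370 to 1998 and 524 to 1010 CPM, and smooth muscle and pericyte markers to 363 to 783 and 272 to 352 CPM, again without overlap. The part of these in the values of all glia was not tested.

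**Figure D5:**
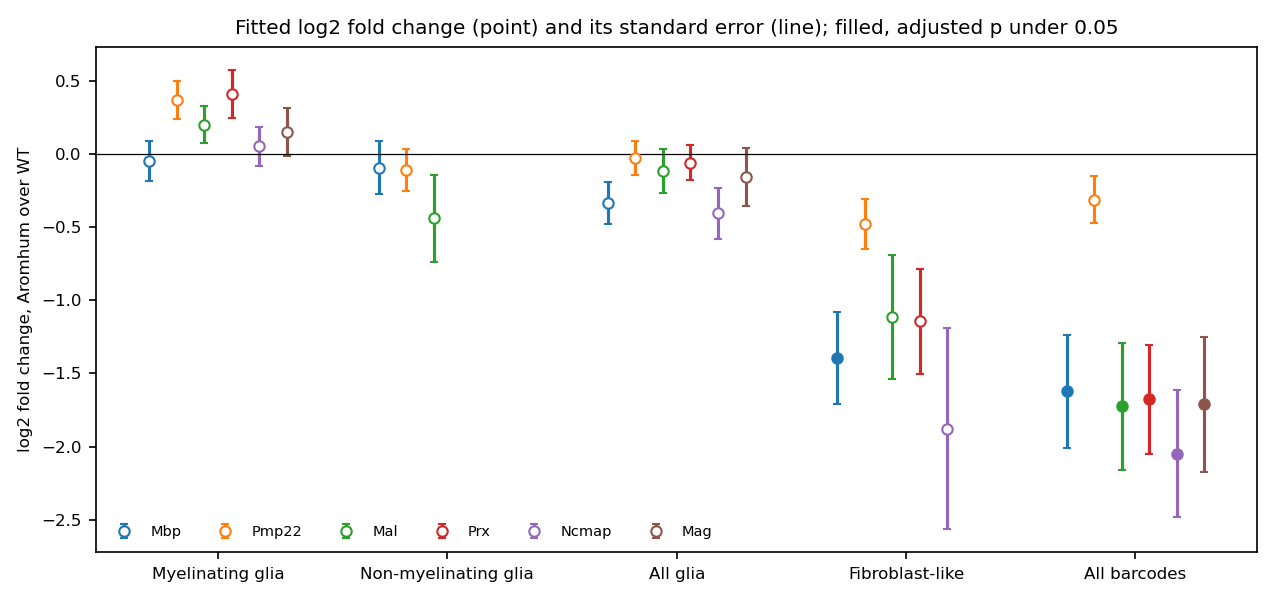
Fitted log2 fold change of Aromhum over WT (points) with its standard error (lines) for each gene in 5 comparisons, filled where the adjusted p was under 0.05. No point is filled in the 3 glial comparisons, 1 is filled in fibroblast-like cells (Mbp, -1.40) and 5 in all barcodes (-1.62 to -2.05), and Prx, Ncmap and Mag in non-myelinating glia and Mag in fibroblast-like cells were not tested.

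Over all barcodes of a mouse summed, 5 of the 6 genes were lower in Aromhum mice, where 23.6% of 15334 genes were called in either direction and 11.2% were called lower. In each of the 5 every Aromhum mouse was below every WT mouse, which was so for 23.7% of the genes. *Mbp* was at 59.9, 86.2 and 142 CPM in WT and 22.2, 24.7 and 45.5 CPM in Aromhum mice, and fell by 1.62 ± 0.39 on the log2 scale (SE, adjusted p = 0.0332 in edgeR's test). *Mal* was at 30.4, 37.8 and 64.7 CPM in WT and 10.1, 8.07 and 21.6 CPM in Aromhum mice (fell by 1.73 ± 0.43, adjusted p = 0.0379). *Ncmap* was at 12.2, 15.5 and 26.4 CPM in WT and 4.02, 2.30 and 6.61 CPM in Aromhum mice (fell by 2.05 ± 0.44, adjusted p = 0.0261). The third mouse of each genotype had the highest level in these 3 genes. *Prx* was at 8.30, 13.7 and 20.3 CPM in WT and 3.41, 3.36 and 6.22 CPM in Aromhum mice (fell by 1.68 ± 0.37, adjusted p = 0.0282). *Mag* was at 3.97, 5.67 and 8.36 CPM in WT and 1.59, 0.893 and 2.96 CPM in Aromhum mice (fell by 1.71 ± 0.46, adjusted p = 0.0438). *Pmp22*, the gene with most of its UMIs outside glia, was at 434, 427 and 526 CPM in WT and 369, 294 and 436 CPM in Aromhum mice, with overlap (log2 fold change -0.31 ± 0.16, adjusted p = 0.197).

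In such sums of a whole suspension, fewer cells of a type and less RNA per cell cannot be told apart. None of the 5 genes passed the test within myelinating glia or all glia, nor did *Mbp* and *Mal*, the 2 of them that were tested, within non-myelinating glia. The part of the share of glia in these values was not tested. The calls, like those over all genes, depended on single mice. Leaving out WT replicate 2, WT replicate 3, Aromhum replicate 1 or Aromhum replicate 2 left 0 of the 6 genes called, with adjusted p from 0.0709 to 0.144 for the 5 genes, and leaving out WT replicate 1 left 4, without *Mag*. Over all genes, the runs that left 0 called 1 of 15663, 2 of 15676, 0 of 15569 and 0 of 15562 genes in that order. Without WT replicate 1, 3198 of 15774 genes were called. Within the study's limits 0 of the 6 genes and 0 of all 13630 were called, with *Mbp* at -0.56 and *Mal* at -0.13 on the log2 scale. Without the upper limit on genes 0 of the 6 were called, among 2397 of 15284 genes, with *Mbp* at -0.61 and *Mal* at -0.89.

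In fibroblast-like cells, the largest class, *Mbp* was at 9.75, 8.25 and 17.9 CPM in WT and 3.43, 4.56 and 5.78 CPM in Aromhum mice and fell by 1.40 ± 0.32 on the log2 scale (adjusted p = 0.0374 in edgeR's test over 13976 genes, of which 13.5% were called and 5.65% were called lower). *Pmp22* was at 448, 479 and 523 CPM in WT and 331, 272 and 453 CPM in Aromhum mice (-0.48 ± 0.17, adjusted p = 0.102). *Prx*, *Mal* and *Ncmap* were below 2.90 CPM in every mouse, with estimates of -1.14, -1.12 and -1.88 and adjusted p of 0.0743, 0.117 and 0.108, and *Mag* did not reach the filter. After normalization all 5 genes tested were lower in every Aromhum mouse than in every WT mouse, as 18% of all genes were, while *Pmp22* overlapped in CPM before it. *Mbp* was highest in WT replicate 3, the mouse with the largest share of glia, and the part of RNA from glia in the fall of *Mbp* was not tested. Without WT replicate 1, 2 or 3 or Aromhum replicate 1 or 2 the call of *Mbp* was lost (adjusted p = 0.0824 to 0.136). These runs called only 124 of 14548, 9 of 14478, 5 of 14508, 9 of 13916 and 15 of 13904 genes in that order. Without Aromhum replicate 3, *Pmp22* and *Prx* were called as well (adjusted p = 0.0118 and 0.0137), among 4139 of 14038 genes.

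In the 8 other cell types, 0 of the 19 tests of a member passed, while 14.3% of all genes did in endothelial cells, 0% in lymphatic endothelial cells and macrophages/monocytes, 0.78% in smooth muscle cells and pericytes, 1.01% in T cells, 2.08% in MuSCs/myoblasts, 0.306% in myonuclei and 0.283% in mesothelial cells. At an unadjusted p under 0.05 there were 554 genes in lymphatic endothelial cells and 728 in macrophages/monocytes. *Mbp*, the gene nearest to a call, was lower in the mean of Aromhum mice in each of the 7 types where it was tested, and every Aromhum mouse was below every WT mouse in MuSCs/myoblasts (as for 12.4% of all genes), myonuclei (6.79%) and mesothelial cells (12%). The same held for *Prx* in endothelial cells (17.8% of all genes, log2 fold change -0.66, adjusted p = 0.107). In MuSCs/myoblasts the estimate for *Mbp* was -1.16 ± 0.33 (adjusted p = 0.0907). *Pmp22* differed in direction between types. It was higher in every Aromhum mouse in smooth muscle cells and pericytes (as were 12.2% of all genes, log2 fold change 0.41 ± 0.17, adjusted p = 0.214) and lower in every Aromhum mouse in mesothelial cells (-0.78 ± 0.22, adjusted p = 0.110), MuSCs/myoblasts (-0.44 ± 0.16, adjusted p = 0.155) and myonuclei (-0.36 ± 0.19, adjusted p = 0.639). Whether these differ from each other was not tested. Without Aromhum replicate 3, 7 member tests passed, which were *Mbp* in endothelial cells, smooth muscle cells and pericytes, macrophages/monocytes and MuSCs/myoblasts, and *Pmp22* in T cells, MuSCs/myoblasts and mesothelial cells (adjusted p = 0.00629 to 0.0363 in edgeR's test). That run called 1685 of 12351 genes in endothelial cells, 846 of 9857 in smooth muscle cells and pericytes and 281 of 9927 in macrophages/monocytes. It called 229 of 3353 genes in T cells, 704 of 8692 in MuSCs/myoblasts and 1398 of 10441 in mesothelial cells. Without WT replicate 1, *Mal* passed in MuSCs/myoblasts (adjusted p = 0.0449), where 120 of 8616 genes were called.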

How the data were processed

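Gene expression in single cells of the LAM was measured by 10x 3′ sequencing. The authors deposited raw UMI counts of 16494 genes in 63647 barcodes, made with Cell Ranger 3.0.2 on mm10 with human *CYP19A1* per the submitters' processing notes. In each library 1071 to 1709 genes stood at 0, and 526 genes were at 0 in all Aromhum libraries. The 6 genes and the gene lists were chosen with earlier results of these data known. Cells were clustered (scanpy 1.11.5, leidenalg 0.10.2, 2000 variable genes without the 6 genes, 30 components, 20 neighbors, resolution 0.8), and clusters were named by marker genes with thresholds set after seeing the data. Doublets were called with Scrublet and kept, and its automatic threshold marked 0% in WT replicates 2 and 3, where the median threshold of the others was used. Counts were summed per mouse and cell type. Genotypes were compared with edgeR 4.0.16 (TMM, filterByExpr, quasi-likelihood test, Benjamini-Hochberg adjustment over all genes tested, threshold 0.05) in classes of at least 20 barcodes per mouse, and shares with exact permutation tests. Levels needed at least 10 barcodes, and a count of 0 was read as up to 3 UMIs. The test script was tested on simulated data. Genes named beside the members were those of each list past the threshold, or else its 2 most abundant, and the 3 most alike in pattern, some of which are not reported here, while the others named in the closing observations were chosen after their values were seen. The floors cover counting error only, while the SE of a log2 fold change comes from edgeR's fit and also holds the spread between mice. Alternatives were DESeq2 1.42.0, no filter, a replicate block, other resolutions, no doublets, the study's limits on cells and each mouse left out.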

Additional observations from a re-analysis of the deposited data

How the results depend on the processing

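None of the 6 genes was called in myelinating, non-myelinating or all glia under any alternative run, and the interaction gave 0 calls for them. Counts of called genes moved more. In myelinating glia they were 68 with no filter on low counts, 26 with the replicate block, 124 with classes taken from blocks of the deposited columns (chosen after seeing the data) and 2 to 18 with a mouse left out. In non-myelinating glia they were 53 with no filter, 13 with the block, 15 at resolution 0.4 and 5 to 9 with a mouse left out. In all glia they were 131 with no filter, 162 with the block, 70 with DESeq2, 8 within the study's limits without the upper limit on genes, 18 without doublets and 9 to 155 with a mouse left out. In fibroblast-like cells 3 members were called with the block, 2 with DESeq2, 0 within the limits and 0 to 3 with a mouse left out. The genes called there were 1493 with the block, 2891 with DESeq2, 1 within the limits and 5 to 4139 with a mouse left out. Over all barcodes DESeq2 called 5527 genes, the limits 0 genes and 0 members, the limits without the upper limit on genes 2397 genes and 0 members, and leaving out a mouse 0 to 4877 genes and 0 to 5 members. Interaction calls were 0 to 1 with a mouse left out. In the 8 other types 2 member tests passed with no filter, 5 with the block, 1 with DESeq2 and 0 to 7 with a mouse left out. Those with no filter were in T cells, with 447 of 13599 genes called, and in MuSCs/myoblasts, with 500 of 14947. The 1 with DESeq2 was in mesothelial cells, with 593 of 15836 genes called.

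Same-numbered mice deviated together with r of 0.083, 0.016 and 0.10 in myelinating glia and 0.12, 0.020 and 0.15 in all glia, so the replicate block rests on a shared number only. In non-myelinating glia (0.16, 0.090 and 0.084) every mouse correlated best with its own number, which was not so in the other 2. The block changed no call of a member in the glia. With it *Mal*, *Pmp22* and *Mbp* passed in endothelial cells (adjusted p = 0.0382, 0.0247 and 0.00537 in edgeR's test), *Mbp* in MuSCs/myoblasts (0.0480) and *Pmp22* in mesothelial cells (0.0493). Over all genes the block called 2831 of 12094 in endothelial cells, 515 of 8081 in MuSCs/myoblasts and 411 of 11651 in mesothelial cells.

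Within the study's limits the Aromhum minus WT difference, in percentage points, turned to 0.330 for myelinating among all glia (3.56 without the upper limit on genes) and 0.0613 for non-myelinating glia among barcodes, and it turned to 13.2 for myelinating among both classes without the upper limit. With a mouse left out the differences were -4.24 to -2.11 for glia, -11.1 to -6.22 for myelinating among glia, -2.55 to -1.27 for myelinating and -0.511 to -0.295 for non-myelinating glia among barcodes, and -6.92 to -4.42 for myelinating among both classes. Levels in myelinating glia within the limits were 3180 CPM for *Mbp*, 23489 for *Pmp22*, 3801 for *Mal*, 1377 for *Ncmap* and 229 for *Mag*, over 5 mice.

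Estimates that turned sign were all uncalled. With a mouse left out, the range of log2 fold changes was -0.0287 to 0.134 for *Ncmap* and -0.186 to 0.0328 for *Mbp* in myelinating glia, -0.253 to 0.0265 for *Mbp* in non-myelinating glia, -0.288 to 0.0133 for *Mal*, -0.425 to 0.0827 for *Mag* and -0.138 to 0.0269 for *Pmp22* in all glia, -0.141 to 0.274 for *Pmp22* in lymphatic endothelial cells, -0.972 to 0.0255 for *Prx* in mesothelial cells and -0.210 to 0.228 for *Mbp* in the interaction. With column blocks they were -0.0773 (*Mal*), -0.220 (*Ncmap*) and -0.232 (*Mag*) in myelinating glia, and with no filter -0.00901 (*Ncmap*). With the *Ucn2* cluster added to non-myelinating glia (chosen after seeing the data) they were 0.149 (*Mal*) and 0.166 (*Mbp*). Without the upper limit on genes they were 0.459 (*Mal*), 0.115 (*Prx*), 0.227 (*Mag*) and 0.491 (*Pmp22*) in all glia and -0.138 (*Pmp22*) in smooth muscle cells and pericytes, and within all limits -0.283 (*Pmp22*, lymphatic endothelial cells) and 0.146 (*Pmp22*, all barcodes). The cause was not tested. The limits could not be run in myelinating glia (2 barcodes in a mouse), non-myelinating glia (0), all glia (10), smooth muscle cells and pericytes (15), T cells (1) and mesothelial cells (8).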

Other observations

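Few genes passed the test in the glial classes, and they were named after their values were seen. In non-myelinating glia, 4 genes other than the transgene were called higher in Aromhum mice (edgeR's quasi-likelihood test). *C3*, the central complement component, was at 3.45 to 6.56 normalized CPM in WT and 59.9 to 77.1 in Aromhum mice (log2 fold change 3.54 ± 0.43, SE, adjusted p = 0.00219), and its totals over whole libraries were 14446 to 43954 and 120410 to 228587 UMIs. *C4b*, another complement gene, was at 384 to 599 and 1112 to 1251 normalized CPM (1.37 ± 0.18, adjusted p = 0.00367), with library totals of 1846 to 7728 and 16524 to 74881 UMIs. *Ptx3*, a pentraxin, was at 12.8 to 42.6 and 77.1 to 445 normalized CPM (adjusted p = 0.0491, library totals 8796 to 33603 and 28764 to 119619 UMIs), and *Ly6a*, which is also 1 of the 15 fibroblast markers, at 10.3 to 32.9 and 77.1 to 160 (adjusted p = 0.0418, library totals 57125 to 78475 and 93351 to 156159 UMIs). Macrophage markers in this class summed to 8307 to 19282 CPM in WT and 6506 to 9828 CPM in Aromhum mice, mostly *Lyz2*, with 8 of 12 higher in the Aromhum mean. Fibroblast markers summed to 2485 to 10597 and 4947 to 9520 CPM, with 11 of 15 higher in the Aromhum mean, among them *Dpt* at 13.5 and 58.6 CPM. The part of free RNA or of other cell types in these values was not tested.

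In myelinating glia *Id3*, an inhibitor of helix-loop-helix factors, fell by 0.95 ± 0.18 on the log2 scale (adjusted p = 0.0358 in edgeR's test), from 356 to 398 normalized CPM in WT to 137 to 243 in Aromhum mice. *Ren1*, the renin gene, rose by 3.32 ± 0.49 (adjusted p = 0.00337), and its library totals were 5565 to 170300 UMIs in WT and 427136 to 821633 in Aromhum mice. *Slpi*, a protease inhibitor gene, was at 3.35 to 14.1 and 39.2 to 43.9 normalized CPM (adjusted p = 0.0470, library totals 20021 to 44892 and 185867 to 272660 UMIs). *Ren1* was among the leading genes of a fibroblast-like cluster and *Slpi* of a mesothelial cluster. In myelinating glia fibroblast markers summed to 1864 to 2218 CPM in WT and 2814 to 3253 CPM in Aromhum mice and mesothelial markers to 138 to 173 and 177 to 207 CPM, and their part in these values was not tested. *Smco3* and *Tyrp1* in myelinating and *Slitrk1* and *Slitrk3* in non-myelinating glia were called lower, but these genes are listed at 0 in every Aromhum library.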
